A study of Mus musculus with 21 samples.

Results

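Fos, Fosb, Jun, Junb, Jund, Egr1, Ier2, Dusp1, Zfp36 and Atf3 are immediate early genes, and their transcripts were followed across 7 fractions of mouse bone marrow cells. The 10 genes were taken by symbol, through the RefSeq accession of each array probe, and make up 10 of the 14315 genes with a tested probe. Junb and Zfp36 had a pair of probes each, and the probe with the higher mean over the 21 arrays stands for the gene. All 10 were well above background on all 21 arrays. The cells came from C57BL/6 mice and were sorted by flow cytometry, with 3 arrays per fraction, to follow gene expression from stem and multipotent cells into the erythroid and myeloid lines. KLS cells, lineage-negative and positive for ckit and sca1, are the most immature. On the erythroid side follow PreMegE (CD150+ CD105- FcgR-), CFUe, and Ter119 cells positive for CD71 and Ter119. On the myeloid side follow PreGM, GMP (CD150- FcgR+), and Mac1Gr1 cells positive for Mac1 and Gr1. The labels give CFUe and PreGM one and the same gate (CD150- CD105- FcgR-), and no treatment or genotype differed between fractions. The labels do not say whether arrays of a fraction came from separate mice, so p-values measure only the spread between arrays, which may be technical.

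Immediate early genes are switched on from existing transcription factors within minutes of a growth factor, cytokine or stress signal, and their mRNAs are short-lived. The FOS and JUN proteins pair to form AP-1, a factor that binds DNA as a dimer, and EGR1 is a zinc finger factor induced by the same MAP kinase signals. Dusp1 encodes a phosphatase that switches MAP kinases off, and Zfp36 encodes tristetraprolin, which speeds the decay of AU-rich mRNAs, so both act as feedback. In blood formation, EGR1 is known for holding stem cells quiescent, and AP-1 and EGR1 are known in monocyte and macrophage differentiation.

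Promoter windows from RefSeq (GRCm38.p6, 250 bases before the annotated start and 50 after it) were matched for 8 of the 10 genes, all but Egr1 and Ier2. They were read because the members fell together at 1 step, as given below. The letters TGACG, the core of the cAMP response element, were searched on both strands of the 250 bases before the start, and stood in 5 of the 8 windows, against 17.9% of 27025 windows. The full element TGACGTCA, which contains this core, stood in 1 of the 8 (Dusp1) and in 1.62% of all windows. The AP-1 site TGACTCA stood in 0 of the 8 and in 4.43% of all windows, and the EGR site GCGTGGGCG in 0 of the 8 and in 0.54%. A CArG box, the serum response element core, stood in 1 of the 8 windows (Zfp36) and in 1.4% of all windows. Fos was the 1 of 8 with TATAAA, searched on the gene's strand, against 8.12%. Each window with the core is printed below over the 160 bases before the start, 5′ to 3′ on the gene's strand, with the core on either strand in capitals. Such a match is a description and not a binding site.
Fos (chr12:85473730-85473889, plus strand): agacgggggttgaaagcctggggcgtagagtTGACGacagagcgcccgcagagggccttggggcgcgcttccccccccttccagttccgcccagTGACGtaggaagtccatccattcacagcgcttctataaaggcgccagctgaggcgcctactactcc
Fosb (chr7:19310046-19310205, minus strand): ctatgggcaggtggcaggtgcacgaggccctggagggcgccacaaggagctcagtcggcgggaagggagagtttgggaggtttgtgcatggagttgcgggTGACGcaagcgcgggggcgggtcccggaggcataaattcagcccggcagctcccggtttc
Junb (chr8:84978749-84978908, minus strand): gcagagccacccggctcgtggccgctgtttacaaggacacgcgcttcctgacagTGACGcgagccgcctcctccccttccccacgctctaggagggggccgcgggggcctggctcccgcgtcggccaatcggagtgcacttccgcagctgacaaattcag
Dusp1 (chr17:26508473-26508632, minus strand): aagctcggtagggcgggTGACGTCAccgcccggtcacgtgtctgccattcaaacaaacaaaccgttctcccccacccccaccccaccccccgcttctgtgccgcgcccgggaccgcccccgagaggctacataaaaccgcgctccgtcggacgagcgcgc
Atf3 (chr1:191183334-191183493, minus strand): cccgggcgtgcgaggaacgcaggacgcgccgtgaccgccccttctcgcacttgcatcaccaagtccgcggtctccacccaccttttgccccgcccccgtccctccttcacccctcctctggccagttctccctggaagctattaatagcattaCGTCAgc
In Fos the core began at -129 and -66 from the start, in Fosb at -60, in Junb at -106 and in Atf3 at -7. Dusp1 held it at -143 and -140, which together form the full element, and again at -191, outside the printed stretch.

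Across the series, 56.4% to 77.4% of spots were well above background, every array correlated best with an array of its own fraction, and 29532 probes were tested. Xist was present on 10 arrays and Y-linked transcripts on the other 11. KLS, PreMegE and Ter119 arrays all had Y-linked transcripts, GMP and Mac1Gr1 arrays all had Xist, and CFUe and PreGM each had Xist on replicates 1 and 2 and Y-linked transcripts on replicate 3. Ter119 against Mac1Gr1 can therefore not be told apart from this split, while PreMegE against KLS and Mac1Gr1 against GMP lay within 1 kind. Transcripts of the sort antigens did not all follow the labels, which list sca1 as positive in the 4 intermediate fractions: Ly6a, which encodes Sca1, was at 2.57 in KLS, -3.14 in PreMegE and -5.81 in CFUe. Granulocytic transcripts (12 markers, summed) reached 12.2 to 12.5 in Ter119, next to 12.4 to 12.5 in Mac1Gr1, although 8 of 8 erythroid markers were well above background in Ter119. B cell transcripts summed to 7.24 to 7.71 in Ter119. All levels are log2 values relative to the 75th percentile of the same array, which is 0, and are compared for 1 gene between fractions, not between genes.

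The 10 genes were high in KLS and PreMegE, low in CFUe and GMP, and split into distinct patterns in the mature fractions. A gene is said to rise or fall where limma gave a Benjamini-Hochberg adjusted p under 0.05 over all probes and the change was at least 2-fold. From PreMegE to CFUe all 10 of 10 fell, by 2.81-fold to 13.8-fold, where 14.7% of all probes tested fell. Some cell type markers fell at this step too. Of the megakaryocyte markers, 7 of 7 fell (median -3.70 on the log2 scale). Their sum went from 5.42 to 5.72 in PreMegE to 1.67 to 1.96 in CFUe. Also falling were 4 of 6 stem cell markers (median -2.62) and 6 of 12 granulocytic ones, of which 1 rose. Of 8 erythroid markers, 5 rose and 0 fell (median 1.63), where 9.96% of all probes rose. The part of such cells in the members' fall was not tested. From KLS to PreGM 8 of 10 fell, against 6.53% of all probes, and from PreGM to GMP 4 of 10 fell, against 6.36%. None of the 10 was called between KLS and PreMegE, where 12.4% of all probes were called in either direction; 1 of the 10, Jun, had an adjusted p under 0.05. From GMP to Mac1Gr1 7 of 10 rose, against 29.1% of all probes, and 1 fell, against 27.6%. From CFUe to Ter119 2 of 10 rose and 1 fell, where 29.2% and 28% of all probes did. Among the 7 fractions together, each of the 10 varied by the F test of the same fit (adjusted p 1.79e-04 or lower), as did 94.7% of all probes. In bulk samples such as these, fewer cells with a transcript and less of it per cell cannot be told apart.

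**Figure D1:**
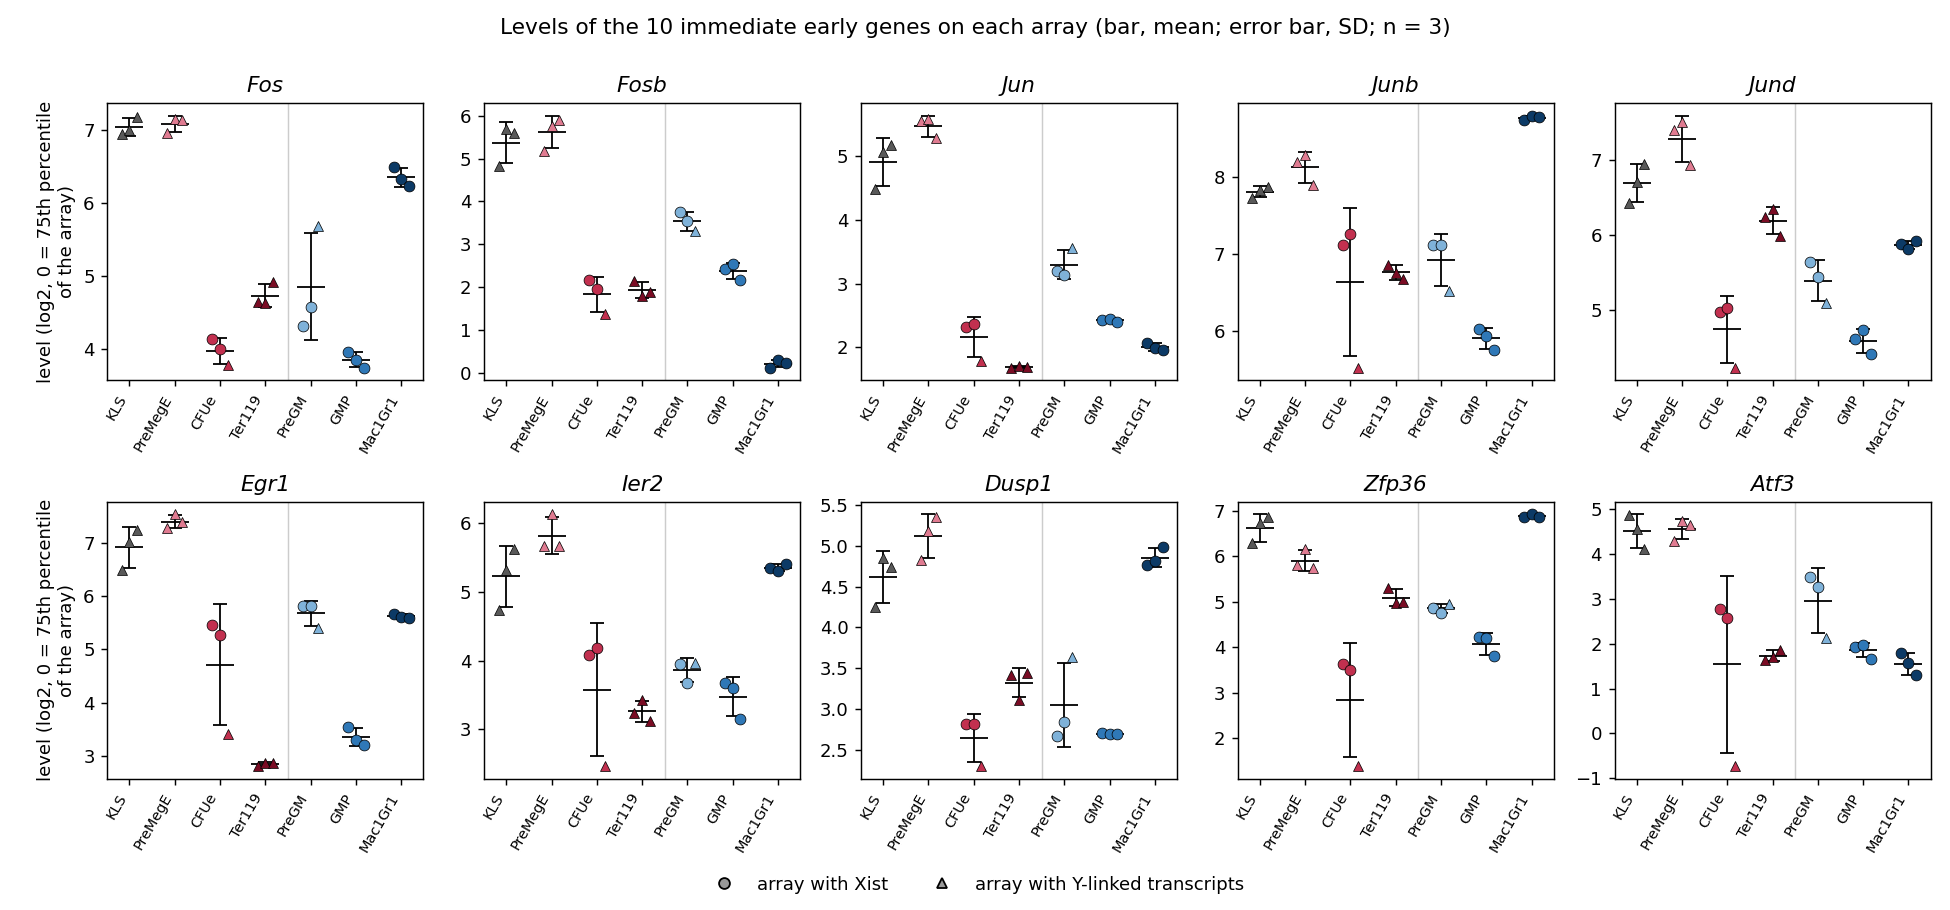
Level of each of the 10 genes (y axis, log2, with 0 at the 75th percentile of the array) on the 3 arrays of each of 7 fractions (x axis), with the mean as a bar and the SD as error bar; circles are arrays with Xist and triangles arrays with Y-linked transcripts. KLS and PreMegE are high in every panel, CFUe and GMP are low, and Mac1Gr1 is high for Fos, Junb, Ier2, Dusp1 and Zfp36 and low for Fosb, Jun and Atf3; the y axes differ between panels.

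Fos, which encodes the AP-1 subunit that needs a JUN partner to bind DNA, read 6.95, 6.99 and 7.18 in KLS and 6.95, 7.16 and 7.14 in PreMegE. It read 4.13, 4.0 and 3.78 in CFUe and 4.65, 4.63 and 4.91 in Ter119. Myeloid cells read 4.31, 4.57 and 5.68 in PreGM, 3.95, 3.86 and 3.75 in GMP and 6.49, 6.32 and 6.24 in Mac1Gr1. KLS and PreMegE overlapped and lay above every other array, and Mac1Gr1 came next without overlap. From PreMegE to CFUe Fos fell by 3.11 on the log2 scale (SE 0.24, adjusted p = 1.59e-08), 8.64-fold. The change from KLS to PreGM was -2.18 (adjusted p = 5.7e-06). Into Mac1Gr1 Fos rose by 2.50 over GMP (SE 0.24, adjusted p = 4.49e-08), 5.65-fold. The fall from PreGM to GMP (-1.0, adjusted p = 0.00474) lay at the 2-fold threshold. It was -0.59 without PreGM replicate 3 and -0.95 without GMP replicate 3, each under 2-fold. With PreGM and GMP fitted alone the adjusted p was 0.0997. In the order of means, the neighbours PreMegE and KLS, PreGM and Ter119, and CFUe and GMP had adjusted p values of 0.05 or higher.

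Fosb, a second FOS family subunit known from lasting stimulation, ended differently. It read 4.82, 5.69 and 5.61 in KLS, 5.19, 5.76 and 5.91 in PreMegE, 2.17, 1.96 and 1.38 in CFUe and 2.15, 1.78 and 1.88 in Ter119. PreGM arrays read 3.75, 3.53 and 3.31, in GMP 2.42, 2.55 and 2.17, and in Mac1Gr1 0.12, 0.29 and 0.22. The Mac1Gr1 arrays were the lowest of all, without overlap with any other fraction. From PreMegE to CFUe Fosb fell by 3.79 (SE 0.24, adjusted p = 2.27e-09), 13.8-fold, the widest fall of the 10 at that step. It went on to fall from PreGM to GMP (-1.15, adjusted p = 0.00198) and again into Mac1Gr1 (-2.17, SE 0.24, adjusted p = 3.62e-07). Fos rose at that last step. Within the 10, Fosb was closest to Jun (r = 0.93 over the 21 arrays, a description across arrays that share their fractions). Fosb was the 1 gene of the 10 higher in Ter119 than in Mac1Gr1 (1.73, adjusted p = 9.27e-06), where 22% of all probes were higher, and this comparison cannot be told apart from the sex-chromosome split.

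Jun, the founding AP-1 subunit, read 4.48, 5.06 and 5.18 in KLS, 5.55, 5.59 and 5.28 in PreMegE, 2.31, 2.37 and 1.79 in CFUe and 1.68, 1.71 and 1.69 in Ter119. In PreGM the gene read 3.20, 3.13 and 3.56, in GMP 2.43, 2.45 and 2.39, and in Mac1Gr1 2.07, 1.99 and 1.95. Jun was thus high at the start and low in both mature fractions. It fell 9.94-fold from PreMegE to CFUe (-3.31, SE 0.18, adjusted p = 2.71e-10) and 3.05-fold from KLS to PreGM (-1.61, adjusted p = 6.05e-06). PreMegE lay above KLS without overlap, by 0.56 (95% interval 0.19 to 0.94, adjusted p = 0.0257), which is under 2-fold. The last steps were -0.46 to Ter119 and -0.42 to Mac1Gr1, neither of them 2-fold.

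Junb, a JUN family subunit that is a weaker activator than JUN and restrains growth of myeloid cells, had its highest mean in Mac1Gr1. It read 7.72, 7.82 and 7.86 in KLS, 8.19, 8.28 and 7.89 in PreMegE, 7.12, 7.26 and 5.52 in CFUe and 6.85, 6.75 and 6.67 in Ter119. The PreGM values were 7.12, 7.12 and 6.52, in GMP 6.02, 5.93 and 5.76, and in Mac1Gr1 8.73, 8.79 and 8.77. The Mac1Gr1 arrays lay above all others. From GMP to Mac1Gr1 Junb rose by 2.86 (SE 0.31, adjusted p = 2.36e-07), 7.26-fold, the widest rise of the 10 there, and its other probe rose by 3.09. The fall from PreMegE to CFUe was the smallest of the 10 (-1.49, SE 0.31, adjusted p = 0.000696) and rested on CFUe replicate 3: without it the change was -0.93, under 2-fold. The fall from PreGM to GMP (-1.02, adjusted p = 0.0228) lay at the threshold and was lost without either of GMP replicates 2 and 3, or of PreGM replicates 1 and 2 (adjusted p 0.0550 to 0.0838).

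Jund, the JUN family subunit usually present in resting cells and the least inducible member of that family, also varied. It read 6.43, 6.70 and 6.94 in KLS, 7.40, 7.51 and 6.93 in PreMegE, 4.98, 5.03 and 4.24 in CFUe and 6.25, 6.34 and 5.99 in Ter119. Levels in PreGM were 5.64, 5.44 and 5.10, in GMP 4.63, 4.74 and 4.42, and in Mac1Gr1 5.89, 5.81 and 5.92. CFUe and GMP overlapped at the bottom, and the mature fractions rose again on both sides. The fall from PreMegE to CFUe was 5.77-fold (-2.53, SE 0.21, adjusted p = 4.51e-08). Over CFUe, Jund rose by 1.44 in Ter119 (SE 0.21, adjusted p = 8.94e-06), and over GMP it rose by 1.28 in Mac1Gr1 (SE 0.21, adjusted p = 3.51e-05). The difference between the pair of rises was 0.17 (adjusted p = 0.67), but this depended on the scaling. It was 0.83 under quantile scaling (adjusted p = 0.0183) and 0.80 with the series table (adjusted p = 0.0254). Scaled to spike-in RNAs, the change was 0.06 into Ter119 (adjusted p = 0.869) and -0.76 into Mac1Gr1 (adjusted p = 0.0412).

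Egr1 read 6.48, 7.01 and 7.24 in KLS, 7.27, 7.53 and 7.38 in PreMegE, 5.46, 5.28 and 3.41 in CFUe and 2.81, 2.87 and 2.87 in Ter119. PreGM stood at 5.81, 5.81 and 5.40, in GMP 3.54, 3.29 and 3.21, and in Mac1Gr1 5.65, 5.61 and 5.58. It fell at each erythroid step after PreMegE, whereas on the myeloid side it fell to GMP and came back. The change was -2.68 from PreMegE to CFUe (SE 0.36, adjusted p = 9.46e-06) and -1.87 from there to Ter119 (adjusted p = 0.00017), against -2.03 and -2.52 without CFUe replicate 3. From PreGM to GMP Egr1 fell by 2.33 (SE 0.36, adjusted p = 0.000137), 5.01-fold, the widest fall of the 10 at that step, and to Mac1Gr1 it rose by 2.27 (adjusted p = 2.27e-05). Mac1Gr1 did not return to the start: Egr1 was lower there than in KLS (-1.30, adjusted p = 0.00377). The fall from KLS to PreGM (-1.24, adjusted p = 0.0184) was lost without KLS replicate 2 or 3 or PreGM replicate 3 (adjusted p 0.0616 to 0.0666). CFUe was above GMP by 1.37 (adjusted p = 0.00437), 1 of 10 higher where 12.1% of all probes were, but CFUe replicate 3 lay among the GMP arrays and without CFUe replicate 1 the change was 0.99, under 2-fold, and without replicate 3 it was 2.02.

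Ier2, an early response gene for a nuclear protein with few known targets, read 4.74, 5.31 and 5.62 in KLS, 5.66, 6.13 and 5.66 in PreMegE, 4.08, 4.19 and 2.47 in CFUe and 3.24, 3.43 and 3.13 in Ter119. For PreGM the arrays gave 3.95, 3.67 and 3.97, in GMP 3.67, 3.61 and 3.15, and in Mac1Gr1 5.34, 5.30 and 5.40. Its arrays formed an upper set of KLS, PreMegE and Mac1Gr1 and a lower set of the other 4 fractions, without overlap between the sets. Ier2 fell by 2.24 from PreMegE to CFUe (SE 0.34, adjusted p = 2.99e-05) and also from KLS to PreGM (-1.36, adjusted p = 0.00706). Mac1Gr1 rose by 1.87 over GMP (SE 0.34, adjusted p = 8.17e-05).

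Of the feedback genes, Dusp1 read 4.25, 4.85 and 4.74 in KLS, 4.82, 5.19 and 5.35 in PreMegE, 2.81, 2.82 and 2.30 in CFUe and 3.41, 3.11 and 3.44 in Ter119. PreGM arrays read 2.67, 2.84 and 3.64, in GMP 2.71, 2.70 and 2.69, and in Mac1Gr1 4.77, 4.81 and 4.98. Its pattern was the closest to that of Fos within the 10 (r = 0.96 over 21 arrays, as a description). Dusp1 fell 5.56-fold from PreMegE to CFUe (-2.47, SE 0.23, adjusted p = 1.31e-07) and 2.96-fold from KLS to PreGM, and rose 4.45-fold from GMP to Mac1Gr1 (2.15, SE 0.23, adjusted p = 1.65e-07). Mac1Gr1 and KLS differed by 0.24 (adjusted p = 0.348).

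Zfp36 read 6.28, 6.73 and 6.85 in KLS, 5.80, 6.16 and 5.74 in PreMegE, 3.63, 3.49 and 1.39 in CFUe and 5.31, 4.96 and 4.99 in Ter119. In PreGM the gene read 4.86, 4.75 and 4.94, in GMP 4.21, 4.21 and 3.80, and in Mac1Gr1 6.86, 6.92 and 6.86. CFUe held the lowest arrays, and both mature fractions lay above their predecessors. Zfp36 fell 8.34-fold from PreMegE to CFUe (-3.06, SE 0.39, adjusted p = 5.28e-06), then rose by 2.25 to Ter119 (SE 0.39, adjusted p = 5.64e-05), whereas without CFUe replicate 3 these changes were -2.34 and 1.53. On the other side it rose by 2.81 into Mac1Gr1 (adjusted p = 4.9e-06). It was lower in CFUe than in GMP (-1.24, adjusted p = 0.0136), 1 of 10 lower where 14.2% of all probes were. That call rested on CFUe replicate 3: without it the change was -0.51, and with the other Zfp36 probe it was -0.20 (adjusted p = 0.747). Of 6 tested mRNAs known to be destabilised by tristetraprolin, 4 fell from PreMegE to CFUe, where 14.7% of all probes did: Tnf (-3.59), Ptgs2 (-3.64), Il1b (-2.97) and Ccl3 (-2.25). From KLS to PreMegE 1 of the 6 rose and 3 fell, where 12.4% of all probes were called in either direction. From KLS to PreGM 0 of the 6 were called, and from GMP to Mac1Gr1 3 rose and 0 fell, where 29.1% of all probes rose. From CFUe to Ter119 6 of 6 rose, where 29.2% of all probes did. At that step 12 of 12 granulocytic, 9 of 9 B cell and 9 of 11 macrophage markers also rose. The part of such cells and of tristetraprolin in these changes was not tested.

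Atf3, a bZIP repressor induced by stress signals, read 4.87, 4.56 and 4.12 in KLS, 4.30, 4.73 and 4.65 in PreMegE, 2.78, 2.58 and -0.73 in CFUe and 1.64, 1.7 and 1.87 in Ter119. The PreGM values were 3.49, 3.28 and 2.13, in GMP 1.93, 1.96 and 1.67, and in Mac1Gr1 1.79, 1.58 and 1.29. KLS and PreMegE lay above all other arrays, and neither mature fraction rose. Atf3 fell 8.09-fold from PreMegE to CFUe (-3.02, SE 0.62, adjusted p = 0.000645); without CFUe replicate 3 the change was -1.88 (adjusted p = 0.00011). Its spread was the widest of the 10 in CFUe (SD 1.97), and in the fit of all arrays it was not called at any of the other 8 comparisons. From KLS to PreGM the change was -1.55 (adjusted p = 0.0801), but it passed under quantile scaling (-1.92, adjusted p = 0.0265). It also passed with KLS and PreGM fitted alone (adjusted p = 0.0398). Without CFUe and PreGM replicate 3, Atf3 was called from KLS to PreGM (-1.14, adjusted p = 0.000922) and from PreGM to GMP (-1.53, adjusted p = 6.27e-05). On those arrays PreMegE was also called above PreGM (1.18, adjusted p = 0.000445).

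**Figure D2:**
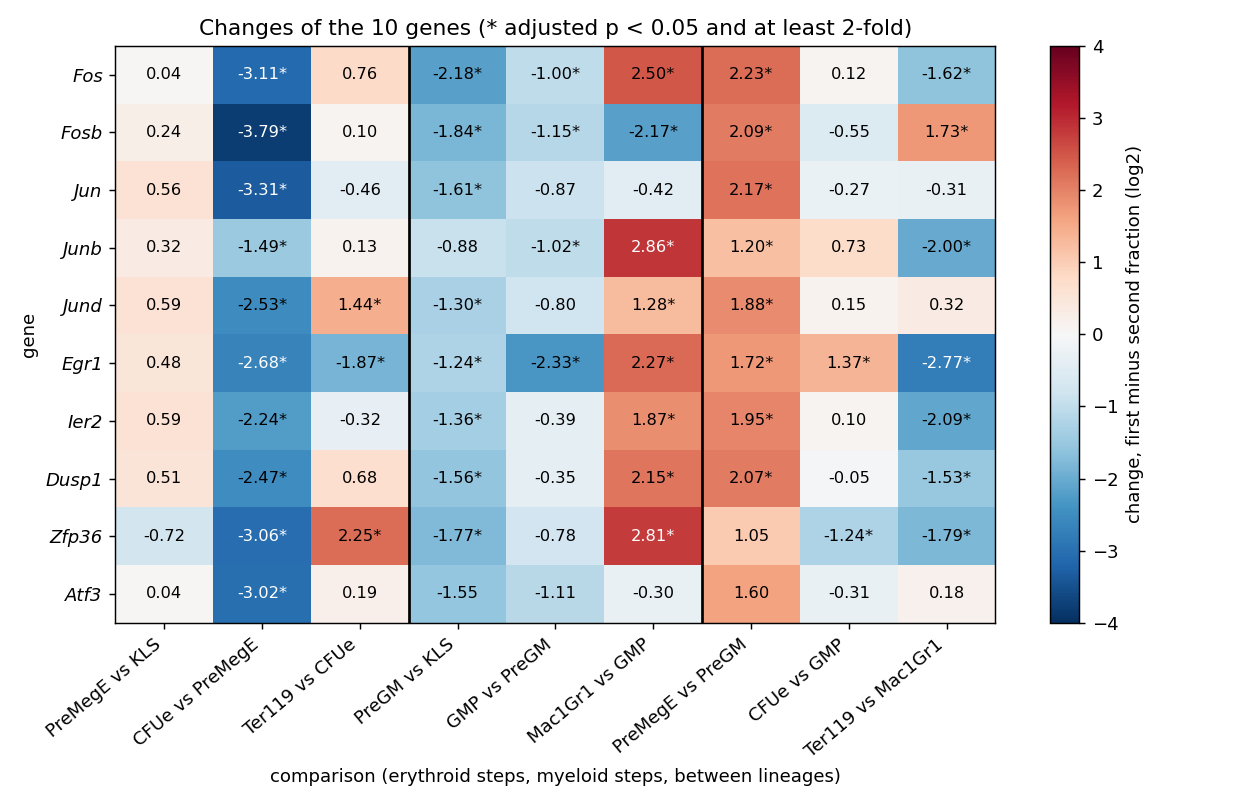
Change of each of the 10 genes (rows) in 9 comparisons (columns; first fraction minus second, log2), with an asterisk where the adjusted p was under 0.05 and the change at least 2-fold. The CFUe vs PreMegE column is called lower throughout, the PreMegE vs KLS column holds no call, and Mac1Gr1 vs GMP holds 7 rises and the fall of Fosb (-2.17).

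Between the lineages, the first step separated all 10 genes in the same direction. PreMegE was above PreGM without overlap for all 10 genes, by 1.05 to 2.23 on the log2 scale, where 22.3% of all probes were, and 8 of 10 were called, against 5.81% of all probes. Megakaryocyte markers were higher in PreMegE too, 7 of 7 (median 2.84), with sums of 2.36 to 2.66 in PreGM, and their part was not tested. The exceptions were Zfp36 (1.05, adjusted p = 0.0576) and Atf3 (1.60, adjusted p = 0.0689). The fit used 1 spread per gene over all fractions, and both genes were widely spread in CFUe (SD 1.25 and 1.97). With PreMegE and PreGM fitted alone, Zfp36 (adjusted p = 0.00412) and Atf3 (adjusted p = 0.0233) were called too. Since PreMegE and PreGM were both set against KLS, the difference of their changes is this same contrast. KLS and PreMegE themselves differed by -0.72 to 0.59. The 95% intervals for Fos (-0.46 to 0.55) and Fosb (-0.27 to 0.76) held changes smaller than 2-fold, whereas those of Jund (0.14 to 1.04), Egr1 (-0.28 to 1.25), Ier2 (-0.12 to 1.31), Zfp36 (-1.55 to 0.11) and Atf3 (-1.28 to 1.37) reached past 2-fold. Macrophage transcripts, measured by 11 of 12 listed markers, summed to 4.90 to 6.37 in KLS, to 0.46 to 0.99 in PreMegE and to 2.71 to 2.88 in PreGM. Against KLS, 11 of 11 were lower in PreMegE, where no member was called, and 10 of 11 were lower in PreGM (median -5.81), where 8 of 10 members fell. Their part in the members' changes was not tested.

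At the middle step, the erythroid fall exceeded the myeloid one for 7 of 10 genes (adjusted p under 0.05; 16% of all probes passed in that direction), with a difference from -1.73 for Jund to -2.63 for Fosb. This difference contains the gap between PreMegE and PreGM with its sign turned, so it is not separate from the first step. CFUe minus GMP had a median of 0.02 over the 10. Junb (-0.47, adjusted p = 0.444), Egr1 (-0.36, adjusted p = 0.636) and Atf3 (-1.91, adjusted p = 0.11) did not pass, though Atf3 did without CFUe replicate 1 (-2.53, adjusted p = 0.0307) or 2 (-2.42, adjusted p = 0.0485). Without CFUe replicate 3, Zfp36 went from -2.28 to -1.56. Its other probe gave -1.49 on all arrays (adjusted p = 0.103) and did not pass, so the Zfp36 difference depended on the probe. At the last step 5 of 10 had the lower change on the erythroid side, where 28.9% of all probes did, and 1 the higher, where 26% did. Egr1 differed by -4.13 (SE 0.51, adjusted p = 3.45e-06), falling into Ter119 and rising into Mac1Gr1. Fosb differed the other way, by 2.27. Without CFUe replicate 3, Egr1 was at -4.79 and Zfp36 passed as well, at -1.28 (adjusted p = 0.000345). On all arrays the other Zfp36 probe passed too, at -2.25 (adjusted p = 0.00988). Among the mature fractions, 6 of 10 were lower in Ter119 than in Mac1Gr1, against 19.9% of all probes, led by Egr1 at -2.77 (adjusted p = 3.89e-06), Ier2 at -2.09 and Junb at -2.00. Of the macrophage markers, 9 of 11 were also lower in Ter119, and their part was not tested. With the sex-chromosome split as a block, chosen after seeing the data and set by CFUe and PreGM alone, Junb was at -0.87, under 2-fold, and Zfp36 at -0.78 (adjusted p = 0.171), which left 4 of the 10 called lower in Ter119 and 2 called higher.

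**Figure D3:**
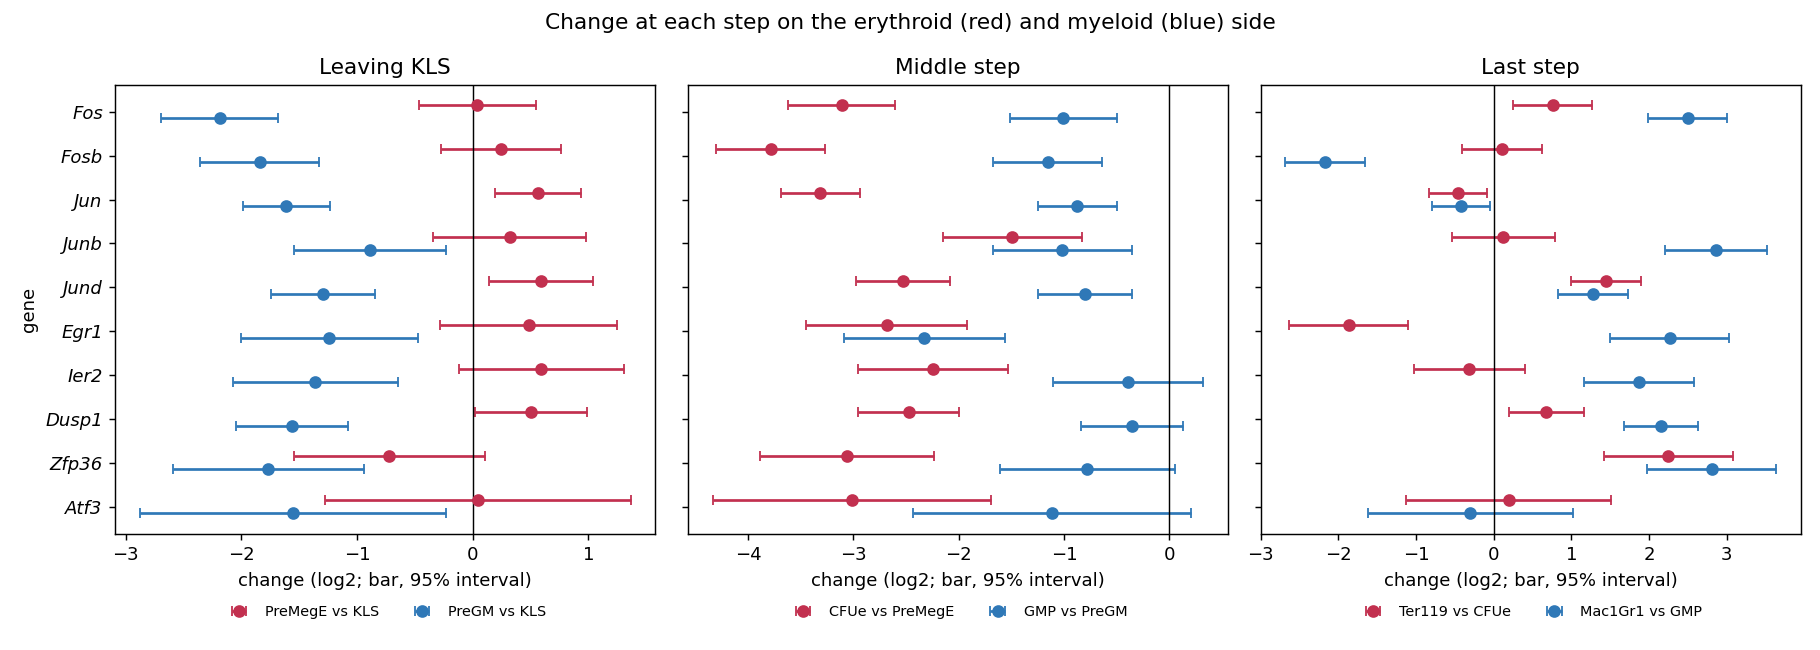
Change (x axis, log2, with 95% interval) of each of the 10 genes (y axis) at the first, middle and last step, with the erythroid comparison in red and the myeloid one in blue. At the first step the blue points lie to the left of the red ones for all 10 genes, and at the last step Egr1 goes in opposite directions (-1.87 and 2.27).

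The rise into Mac1Gr1 depended on what the arrays were scaled to. Scaled to spike-in RNAs instead of each array's own 75th percentile, the median of all probes shifted: -1.86 for Mac1Gr1 minus GMP, -1.33 for Ter119 minus CFUe, -1.15 for CFUe minus GMP, 0.99 for GMP minus PreGM and -0.39 for CFUe minus PreMegE. On that scale 0 of 10 rose and 3 fell from GMP to Mac1Gr1, 0 rose and 5 fell into Ter119, 1 fell from PreGM to GMP, and 8 were lower in CFUe than in GMP. The share of all probes called on that scale is not given here, so these counts do not set the members apart. The spike-in and percentile scalings differ by 1 constant per array, so a member's distance from the median of all probes is the same under each: from GMP to Mac1Gr1 Junb lay 2.68 and Zfp36 2.63 above that median. Under quantile scaling, the series table and normexp, where this distance could differ, 7 genes lay above the median in each, and from PreMegE to CFUe 0 of 10 did. Summed macrophage transcripts were 3.92 to 4.05 in GMP and 5.80 to 5.84 in Mac1Gr1, and B cell transcripts 3.17 to 3.38 and 5.03 to 5.79. Their part in the rise was not tested.

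CFUe replicate 3 stood apart. All 10 genes were at their lowest CFUe level on that array, as were 31.2% of all probes, and 5 of them (Junb, Egr1, Ier2, Zfp36 and Atf3) lay at least 1 log2 unit below the mean of the other 2 arrays, where 3.42% of 29421 probes did. The gap was -3.41 for Atf3, -2.17 for Zfp36 and -1.96 for Egr1, and -0.29 for Fos. That array also differed in granulocytic transcripts, which summed to 5.37, against 2.43 and 2.58 on the other 2 arrays, and in carrying Y-linked transcripts. Stem cell markers summed to 1.03 on it, against -1.48 and -1.03, and B cell ones to 1.91, against 0.40 and 0.48. Mast cell or basophil markers summed to -0.82, against -2.18 and -1.97. Erythroid markers were alike, at 6.63 against 6.47 and 6.63. In PreGM, replicate 3 was above the others in Fos by 1.24 and in Dusp1 by 0.88, and below in Atf3 (-1.25). Summed granulocytic transcripts in PreGM were 9.54 on replicate 3 and 9.29 and 9.37 on the others. Mast cell or basophil transcripts there summed to 4.70 on replicate 3, against 3.51 and 3.36. The part of such cells in the members' levels was not tested. Without both arrays, 9 of 10 fell from PreMegE to CFUe, 9 of 10 fell from KLS to PreGM, and 10 of 10 were higher in PreMegE than in PreGM. The share of all probes called without both arrays is not given here. In the 6 comparisons with both sex-chromosome kinds in a fraction, 35 of 35 differences of called members kept their direction within a kind. This was fixed in advance where the arrays of both fractions did not overlap, as for all of them except Egr1 in CFUe against GMP. Sizes moved: Egr1 from CFUe to Ter119 was -0.56 against CFUe replicate 3 alone, and -1.87 over all arrays. Within a slide, each with 1 array a side, 33 of 33 kept their direction. None of those members' arrays overlapped between the fractions, so this too was fixed in advance. Neither count is thus a check on the sex-chromosome split or on the slide. GMP replicate 3 was the lowest of its fraction for all 10 genes too, as for 31.7% of all probes, and the SD in GMP stayed between 0.0079 and 0.28.

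**Figure D4:**
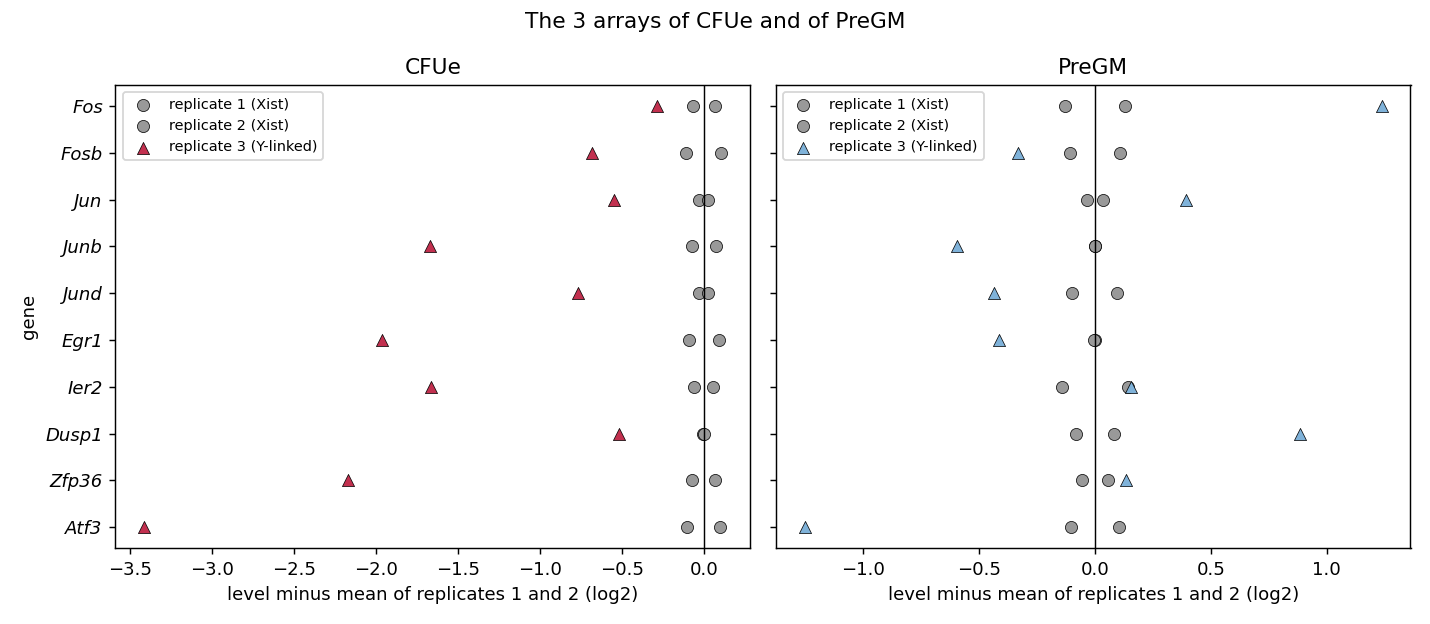
Level of each of the 10 genes (y axis) on the 3 arrays of CFUe and of PreGM, as the difference from the mean of replicates 1 and 2 (x axis, log2). CFUe replicate 3 lies to the left for all 10 genes, down to -3.41 for Atf3, while PreGM replicate 3 lies on either side; circles have Xist and triangles Y-linked transcripts.

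The arrays of KLS were also spread in an ordered way, those of PreMegE less so. KLS replicate 1 was the lowest KLS array for 9 of 10 genes, where it was for 37.1% of all probes. Atf3 was instead highest on it, at 4.87. PreMegE replicate 1 was the lowest for 6 of 10, against 33.5%, and PreMegE replicate 3 for 4 of 10, against 47.3%. Of 8 heat shock genes, which mark protein-folding stress, 7 were lowest on KLS replicate 1 and 7 on PreMegE replicate 1. Hspa1a read 4.42, 6.06 and 6.16 in KLS and 6.19, 7.94 and 7.35 in PreMegE. It read 2.27, 2.48 and 2.51 in CFUe, 3.53, 3.45 and 3.01 in PreGM and 3.33, 3.38 and 3.24 in GMP. From PreMegE to CFUe the changes were -4.74 for Hspa1a and -4.99 for Hspa1b, and from KLS to PreGM -2.21 and -2.41. Over the list, 3 of 8 fell from PreMegE to CFUe, where 14.7% of all probes did, and 2 rose, against 9.96%, Hspd1 by 1.28 and Hspe1 by 1.07 (median of the 8, 0.01). From KLS to PreGM 2 of 8 fell and 0 rose (median -0.38), and from GMP to Mac1Gr1 7 of 8 fell, where 27.6% of all probes did. The part of heat shock genes in the members' levels was not tested.

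Other early response genes were also lower in CFUe than in PreMegE. Of 27 other early response genes, 21 fell and none rose from PreMegE to CFUe, where 14.7% of all probes fell, with a median of -1.95 on the log2 scale against 0.12 for all probes and -2.85 for the 10 members. The widest falls were those of Klf4 (-5.51), Klf6 (-5.41), Rhob (-5.05) and the nuclear receptor gene Nr4a1 (-4.79). From KLS to PreGM 9 of the 27 fell, against 6.53% of all probes, among them Klf4 (-2.82) and Rhob (-2.55). From GMP to Mac1Gr1 14 rose and 3 fell, where 29.1% and 27.6% of all probes did, led by Gadd45g at 5.43 and Plk3 at 4.37. Into Ter119, 18 rose and 4 fell (median 1.99), where 29.2% and 28% of all probes did. Trib1 rose there by 6.40 and Plk2 by 5.42. Granulocytic transcripts rose at that step as given above, and their part was not tested.

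**Figure D5:**
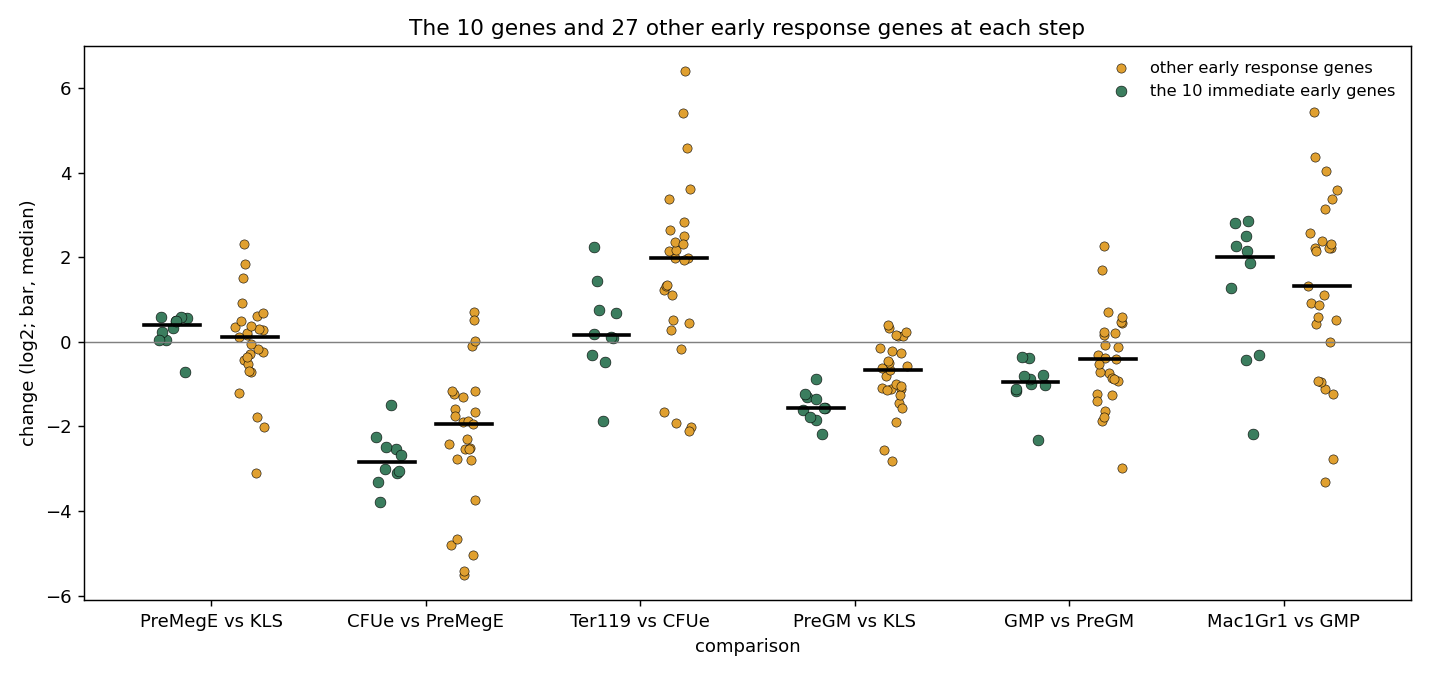
Change (y axis, log2) of the 10 genes (green) and of 27 other early response genes (yellow) at each of 6 steps (x axis), with medians as bars. The medians were -2.85 and -1.95 for CFUe vs PreMegE and 0.16 and 1.99 for Ter119 vs CFUe.

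Among other AP-1 and bZIP partners, 4 of 11 fell from PreMegE to CFUe, against 14.7% of all probes, and 6 of 11 rose from GMP to Mac1Gr1, against 29.1%. Fosl2, a FOS-related subunit, changed by -3.18 at the first of these and by 3.84 at the second, and it also rose by 5.45 into Ter119. Jdp2, a repressor that competes for AP-1 sites, changed by -3.79 into CFUe, by 7.20 into Ter119 and by 2.25 into Mac1Gr1. Into Ter119 5 of the 11 rose and 1 fell, where 29.2% and 28% of all probes did. Granulocytic markers rose at that step too, 12 of 12, and their part was not tested. In PreMegE 4 of the 11 were lower than in KLS, against 8.86% of all probes, with Jdp2 at -2.43 and Fosl2 at -2.16. Of 5 other EGR genes and NAB co-repressors, 3 fell from PreMegE to CFUe, against 14.7% of all probes: Egr4 (-3.92), Nab2, which represses EGR1 targets (-3.0), and Egr3 (-2.61). From PreGM to GMP 3 of 5 fell, against 6.36%: Egr3 (-2.38), Egr4 (-2.20) and Nab2 (-1.72).

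Of 11 tested feedback phosphatases, ZFP36 paralogues and Sprouty-type inhibitors, 7 fell and 0 rose from PreMegE to CFUe, where 14.7% of all probes fell, among them Dusp2 (-4.44), Spry1 (-3.17) and Dusp4 (-3.14). From GMP to Mac1Gr1 6 of these 11 fell, against 27.6% of all probes, and 2 rose, against 29.1%, Dusp6 by 1.99 and Zfp36l1 by 1.96. Of 20 upstream kinases and factors, 3 fell from PreMegE to CFUe, a share near the 14.7% of all probes: Elk3, a ternary complex factor of the serum response element (-3.48), Mrtfa (-1.57) and Mrtfb (-1.01). Srf changed by -0.18 at that step and was not called.

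The genes whose pattern was most like each member's, by Pearson r over the 21 arrays and 14314 other genes, differed between members. Arrays of a fraction share their level, so these values describe the fractions and carry no test. For Fos they were Dusp1 (0.96), Tgm4 (0.93) and Tsc22d3 (0.93), and for Dusp1 Fos, Tsc22d3 (0.93) and Ier2 (0.91). Fosb was closest to Mlf1 (0.97), Psd3 (0.96) and Cavin3 (0.96). Jun was closest to Gprasp1 (0.96), Eid3 (0.96) and Prkg1 (0.95), and Junb to Kdm6b (0.96), Ier5 (0.94) and Sgms1 (0.94). Jund was closest to Kdr (0.94), Cdc14b (0.93) and Glul (0.92), and Egr1 to Tmem88 (0.97), Ccnl1 (0.92) and Eid3 (0.91). Ier2 was closest to H2-Q4 (0.91), Dusp1 (0.91) and Tmem88 (0.90), and Zfp36 to Pnrc1 (0.95), Dusp6 (0.94) and Wdfy1 (0.92). Atf3 was closest to Eid3 (0.90), F11r (0.90) and Jun (0.88). Among the 45 pairs of members r ran from 0.13 for Fosb and Junb to 0.96 for Fos and Dusp1, with a median of 0.73.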

How the data were processed

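RNA of 7 sorted fractions was hybridised in 1 colour to Agilent whole mouse arrays, 21 in all. The scanner files deposited by the authors give each spot a background-corrected intensity; the submitters' processing notes name Agilent Feature Extraction 10.7.1.1. A table of normalized log2 values, also deposited by the authors, served as an alternative (method not given in the sources used here).

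Level is log2 of the intensity minus the array's 75th percentile over 43379 spots that were not controls. Outlier spots (80 to 283 per array) were left out, no spot was saturated, and spots of a probe were averaged to 41174 probes, of which 26690 (64.8%) received a symbol through RefSeq accessions (GRCm38.p6, names only; the arrays' annotation is mm9). A probe entered the fit where every array of some fraction held it well above background (29532 probes). Tests by limma, two-sided (version 3.58.1, R 4.3.3), used 1 model with 7 means (14 residual degrees of freedom, median residual SD 0.26) and Benjamini-Hochberg adjustment within each comparison; calls needed an adjusted p under 0.05 and 2-fold, lineage differences the adjusted p alone. Arrays limit the precision by their number. The procedure was tested on simulated data. All 10 members are named, and of 7 lists of related genes those called in the comparison described; Srf was named after its value was seen. Members and lists were chosen with earlier results of these data known. The 3 genes most like each member by r are named. Marker lists had no probe for Cd68, Igll1, Kit and Ly6g, which were not analysed here; of the pathway lists, Csf2, Dusp5 and Elk1 were not tested. Alternatives were other scalings, normexp with an offset of 50 on median pixel signals, filters, blocks, other probes and left-out arrays; the sex-chromosome block and the joint omission of CFUe and PreGM replicate 3 were chosen after seeing the data. Replicate numbers did not pair arrays (9 of 27 same-number pairs of deviations had r over 0.1). Figures used Python 3.11.15, pandas 2.3.3 and matplotlib 3.10.9.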

Additional observations from a re-analysis of the deposited data

Results flagged for a closer look

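The change at a step differed between the erythroid and the myeloid side, by the test of the difference itself in the same limma fit, for the genes that follow. All values are the erythroid change minus the myeloid change on the log2 scale.

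At the first step, which equals PreMegE minus PreGM, the difference was 2.23 for Fos, 2.09 for Fosb, 2.17 for Jun, 1.20 for Junb, 1.88 for Jund, 1.72 for Egr1, 1.95 for Ier2 and 2.07 for Dusp1. All 8 were above 0, with fold differences from 2.30 to 4.68. Of all probes tested, 5.81% were higher in PreMegE than in PreGM at the same adjusted p and at least 2-fold.

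At the middle step it was -2.11 for Fos, -2.63 for Fosb, -2.44 for Jun, -1.73 for Jund, -1.85 for Ier2, -2.12 for Dusp1 and -2.28 for Zfp36. In these 7 genes the fall into CFUe exceeded the change into GMP, where 16% of all probes passed in that direction. Each value contains the first step's gap between PreMegE and PreGM with its sign turned, so the lists for both steps are not separate. Without CFUe replicate 3, Zfp36 was at -1.56, and its other probe did not pass on all arrays (-1.49, adjusted p = 0.103).

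At the last step it was -1.74 for Fos, -2.73 for Junb, -4.13 for Egr1, -2.19 for Ier2, -1.48 for Dusp1 and 2.27 for Fosb. In Egr1 the erythroid arrays fell and the myeloid arrays rose, and Fosb was the 1 gene of the 6 with a value above 0. Such differences were common at this step: 28.9% of all probes passed below 0 and 26% above it. Without CFUe replicate 3, Egr1 was at -4.79.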

How the results depend on the processing

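Over the alternatives, 2196 of the members' values kept their direction and their side of the threshold, 83 passed it where they had not, 45 lost it and 10 turned direction. All 10 that turned did so under spike-in scaling: from CFUe to Ter119 Fosb to -1.28 and Junb to -1.26; from PreGM to GMP Junb to 5.3e-05 and Fos to 0.011; from GMP to Mac1Gr1 Jund to -0.76 and Ier2 to -0.16; and for CFUe against GMP Jund to -1.22, Egr1 to -0.010, Ier2 to -1.27 and Fos to -1.26. That scaling moved the median of all probes, by its construction; why the spike-in signal differed was not tested.

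Called members numbered 1 for PreMegE vs KLS with no minimum fold. For Ter119 vs CFUe the 3 became 5 under quantile scaling, spike-in scaling (5 lower), the 75th percentile over detected probes and the series table, and 6 with no minimum fold. For GMP vs PreGM the 4 became 1 under spike-in scaling and 2 with the slide as a fixed block. For Mac1Gr1 vs GMP the 8 became 3 under spike-in scaling. For CFUe vs GMP the 2 became 8 under spike-in scaling (all lower), 1 with the slide fixed and 0 when compared alone, where the fit had fewer samples. Step 3 lineage differences went from 6 to 3 under spike-in scaling. The cause of the other shifts was not tested. The share of all probes called under each alternative, left-out arrays included, is not given here, so such counts describe the members alone.

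Leaving out 1 array at a time gave 2 to 4 called members for GMP vs PreGM, with 2 without GMP replicate 3, and 1 to 2 for CFUe vs GMP, with 1 without CFUe replicate 1. It gave 9 to 10 for CFUe vs PreMegE, 7 to 8 for PreGM vs KLS and 8 throughout for Mac1Gr1 vs GMP.

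Replicate numbers do not pair the arrays (same-number deviations correlated from -0.37 to 0.37). With the replicate number as a block, Atf3 in PreMegE vs PreGM passed (1.60, adjusted p = 0.0437), and no other member's call changed. The lowest 75th percentile, an intensity of 196 in Ter119 against 1010 in GMP, left Ter119 nearest to background, but the 10 members were well above background on all arrays.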
